A study of Homo sapiens with 10 samples.

Results

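The 5 human genes whose proteins carry a YTH domain are YTHDF1, YTHDF2, YTHDF3, YTHDC1 and YTHDC2. They were taken by name wherever a deposited table lists them, out of 10934 gene names in the 4 tables. The expression table holds 2 of them (YTHDF1 and YTHDF2). The list of RNAs recovered with YTHDF1 antibody holds 3 (YTHDF1, YTHDF3 and YTHDC2), and 4 have m6A windows in both replicates (all but YTHDC2). The other combinations are not analysed here. All 10 samples are HCT116, a human colorectal carcinoma cell line, exposed before lysis to cycloheximide, which stalls ribosomes, for 3 min at a concentration of 100 ug/ml. Ribosome profiling had 2 libraries after YTHDF1 knockdown (genotype label shY1) and 1 control library, and mRNA-seq had the same numbers. The control hairpin targets GFP, per the file headers. The titles of both assays read knockdown with shY1-1 and with shY1-2, called knockdown 1 and 2 here. This wording may name 2 hairpins, but no label says whether they are different hairpins, clones or separate cultures. A RIP (immunoprecipitation of RNA with its bound protein) with YTHDF1 antibody, its whole cell lysate input and 2 m6A-seq replicates came from cells labelled as control genotype, 1 library each. The stated purpose was to study mRNA translation regulated by YTHDF1.

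The YTH domain is a fold with an aromatic pocket that holds N6-methyladenosine (m6A), the commonest internal modification of mRNA. YTHDF1, YTHDF2 and YTHDF3 are closely related cytoplasmic proteins: YTHDF1 is best known for binding translation factors, YTHDF2 for recruiting the CCR4-NOT deadenylase that starts mRNA decay, and YTHDF3 for acting with both. YTHDC1 is nuclear and linked to splicing and export of methylated RNA, and YTHDC2 is a helicase known for its role in meiosis. On GRCh38, YTHDF1 lies on chromosome 20 (63195429 to 63216131), YTHDF2 on chromosome 1 (28736624 to 28769775), YTHDC1 on chromosome 4 (68310387 to 68350090) and YTHDC2 on chromosome 5 (113513694 to 113595284).

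The reader mRNAs carried m6A windows themselves. For each window the deposited lists name 1 motif of 5 letters, and its position along a transcript that the files do not identify. Each list names only 12 different motifs, and all have A and C as letters 3 and 4 (100%). Since every window shares these letters, they say nothing about the readers in particular. No source used here says how the motif of a window was chosen. The motifs of YTHDF1, YTHDF2 and YTHDC1 are shown so that positions seen in both replicates (7 of 13) can be told from those seen in 1. Capitals mark the A and C.
YTHDF1 position 578, replicate 2: ggACc
YTHDF1 position 626, replicate 1: agACc
YTHDF1 position 1013, both replicates: gaACa
YTHDF1 position 1315, both replicates: agACc
YTHDF2 position 629, replicate 1: ggACa
YTHDF2 position 860, both replicates: ggACa
YTHDF2 position 1103, both replicates: aaACa
YTHDF2 position 1475, both replicates: ggACa
YTHDF2 position 1825, both replicates: ggACa
YTHDC1 position 750, replicate 1: gaACa
YTHDC1 position 764, replicate 1: agACc
YTHDC1 position 1578, replicate 1: gaACc
YTHDC1 position 2066, both replicates: agACc

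The motif ggaca stood at 4 of the 5 YTHDF2 windows of replicate 1 and at 3 of its 4 windows of replicate 2. It made up 11.5% of all motifs in the list of replicate 1. No YTHDF1 or YTHDC1 window carried it. The motif lay inside the window for 80.9% of all windows; those of YTHDF2 at 629 and of YTHDC1 at 750 and 764 lay outside theirs. These are counts over a few windows of single genes and were not tested.

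YTHDF1 was the target of the knockdown, and its mRNA and footprints were below the control in each knockdown library. The control gave an mRNA signal of 27.4 (the headers name no unit), knockdown 1 gave 8.62 and knockdown 2 gave 7.81. These are 31.5% and 28.5% of the control. Its ribosome footprints, the mRNA fragments protected by ribosomes, came to 61.4 for the control, 17.0 for knockdown 1 and 19.9 for knockdown 2, or 27.6% and 32.5% of the control. In neither assay did the knockdown libraries overlap the control, and 17.6% of genes lay below it in all 4. The spread between them was small beside the distance to it (8.22 ± 0.575 for mRNA and 18.4 ± 2.11 for footprints, SD, n = 2).

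On the log2(value + 1) scale the mRNA change of YTHDF1 was -1.62 ± 0.40 (SE), with a 95% interval of -2.58 to -0.67. Its footprint change was -1.69 ± 0.40, with an interval of -2.64 to -0.73, and was -1.41 relative to the median gene. Both intervals exclude 0, but neither change passed Benjamini-Hochberg adjustment over the 6782 genes tested in limma (adjusted p = 1.00 for mRNA and 0.552 for footprints, unadjusted 0.00549 and 0.00456). In this fit 0% of genes were called in mRNA, 0.0295% in footprints and 0% in translational efficiency, while 32, 600 and 185 genes had an unadjusted p under 0.05. The p-values rest on the spread between the knockdown libraries, pooled over both assays and moderated toward a trend over all genes. That spread may be technical or, if shY1-1 and shY1-2 are different hairpins, hold differences between them. Each control is a single library, and the fit does not link libraries of the same name. With each assay fitted alone, the SE for YTHDF1 was 0.36 in mRNA and 0.60 in footprints.

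How far YTHDF1 stood apart from other genes was described by its rank. Its mean mRNA change was the eighth lowest of all genes tested, and its footprint change ranked 182 from the lowest. In mRNA, 0.059% of genes, 4 including YTHDF1, lay at least as far below the control in both knockdown libraries, against 1.15% in footprints. The other 3 were RAD51B, C14orf145 and KLK4, named because of this count. RAD51B, a recombination protein, had lower mRNA (15.7 in the control, 3.69 and 3.57 in the knockdowns) but footprints of 23.4, 23.9 and 35.0. KLK4, a secreted protease, had 5.83 in the control and was listed at 0 in both mRNA knockdown libraries. No control value lies below 0.5, whereas knockdown values can be 0. Genes absent from a control are therefore not listed, and shares of genes above and below the control may not be symmetric. Both libraries lay at least 1 log2 unit below the control for 0.428% of genes in mRNA and 5.4% in footprints. All 4 did so for 0.059% of genes, again 4, which were YTHDF1, BARD1, ZNF44 and ZNF266. In mRNA alone 29 genes fell this far in both libraries, which bounds the count of 4. ZNF44 and ZNF266 had low control mRNA (2.48 and 3.45).

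Of the other readers only YTHDF2 had expression values, so changes of YTHDF3, YTHDC1 and YTHDC2 with the knockdown cannot be judged. YTHDF2 stood higher than the control in every knockdown library. The control had an mRNA signal of 28.8, knockdown 1 of 33.6 and knockdown 2 of 40.2, or 117% and 139% of the control. For footprints the control had 59.3, knockdown 1 90.5 and knockdown 2 86.2, or 153% and 145%. As for YTHDF1, no knockdown value overlapped the control, but in the opposite direction. The mRNA change was 0.34 ± 0.33 (SE; 95% interval -0.46 to 1.14) and the footprint change 0.57 ± 0.33 (-0.24 to 1.37). Neither passed in limma (adjusted p = 1.00 and 0.606, unadjusted 0.346 and 0.137), and both intervals include 0.

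Read against all genes, 30.9% lay above the control in both mRNA knockdown libraries and 17.5% in both footprint libraries, and 7.05% in all 4, as YTHDF2 did. At least as far above the control as YTHDF2 in both libraries lay 4.23% of genes in mRNA and 4.53% in footprints. The median gene changed by -0.01 in mRNA and -0.28 in footprints. Relative to that median, YTHDF2 footprints stood 0.80 higher in knockdown 1 and 0.87 higher in knockdown 2, and its mRNA 0.25 and 0.44. Measured this way 32.5% of genes lay above the control in both footprint libraries, 30.6% in both mRNA libraries and 12.2% in all 4. With each library centred on its median the footprint change of YTHDF2 was 0.86 (interval 0.10 to 1.61, limma unadjusted p = 0.0323, adjusted p = 0.651), over 1.5 times the value without centring. So the size of the YTHDF2 footprint difference depends on how the libraries are scaled, while its direction was the same in the 12 alternatives run.

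**Figure D1:**
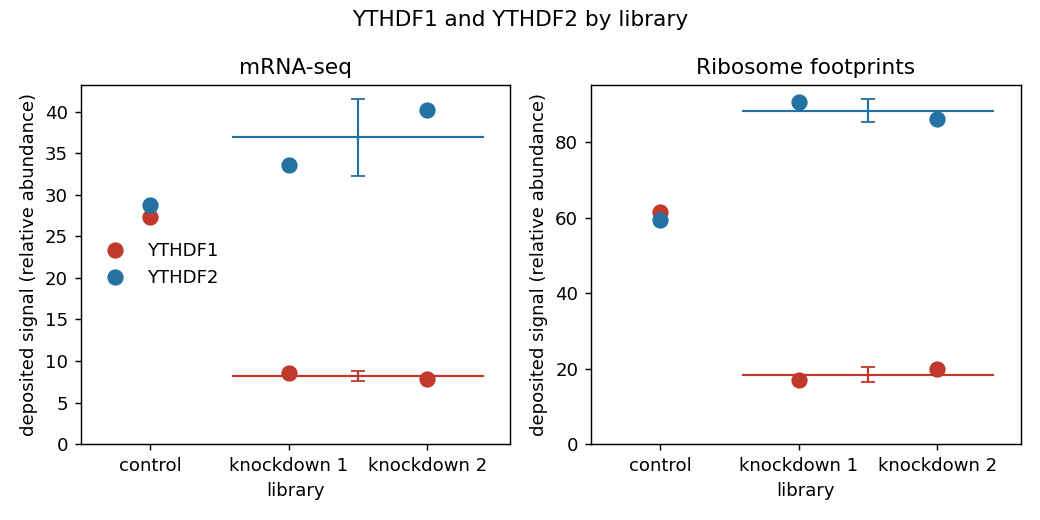
Deposited signal of YTHDF1 (red) and YTHDF2 (blue) in each library, mRNA-seq on the left and ribosome footprints on the right; points are single libraries, lines and bars the mean ± SD of the 2 knockdown libraries. YTHDF1 lies at 7.81 to 8.62 in the mRNA knockdowns against 27.4 in the control, and YTHDF2 at 33.6 to 40.2 against 28.8; the unit is not stated to be per length, so the heights of different genes are not to be compared.

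The ratio of the paralogs was taken within each library, where a factor common to the library cancels. YTHDF1 over YTHDF2 in mRNA was 0.950 for the control, 0.257 for knockdown 1 and 0.195 for knockdown 2. In footprints it was 1.04, 0.187 and 0.231. Knockdown minus control, the log2 ratio differed by -2.09 in mRNA and -2.31 in footprints. An exact permutation test over the 3 libraries of an assay cannot go below p = 0.333 and gave that value in both assays (two-sided, n = 1 and 2). Which share of this comes from YTHDF2 is not given by a ratio. The paralogs and their processed pseudogenes have similar sequences, and no source used here says how reads that match several copies were counted, so each value may hold some reads of another copy.

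**Figure D2:**
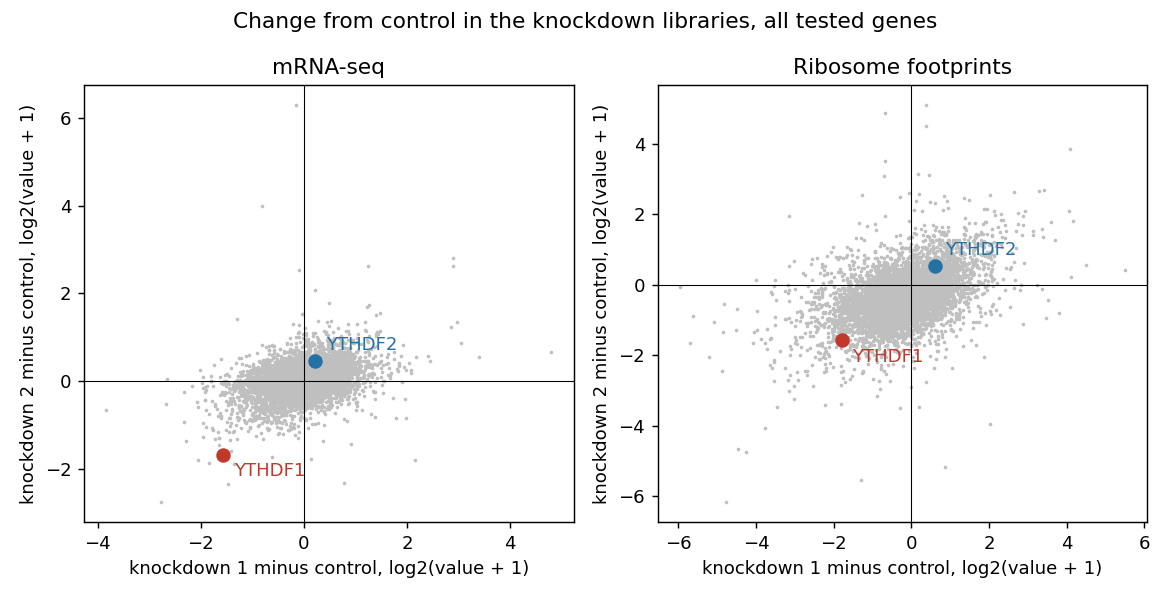
Change from the control on the log2(value + 1) scale in knockdown 1 (horizontal) and knockdown 2 (vertical) for the 6782 genes tested, mRNA-seq on the left and footprints on the right. YTHDF1 lies at the lower left, at -1.56 and -1.69 in mRNA and -1.80 and -1.57 in footprints, and YTHDF2 at the upper right, at 0.22 and 0.46 and at 0.60 and 0.53.

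Translational efficiency, the ratio of footprint to mRNA signal, was set against that of all genes. For YTHDF1 the control had 2.24, knockdown 1 1.97 and knockdown 2 2.55, with the control between the knockdowns. For YTHDF2 it was 2.06, 2.69 and 2.15, with both knockdowns above the control. The median gene had ratios of 2.32, 2.01 and 1.73. YTHDF1 lay at the 48.8th percentile of this ratio in the control, the 49.2nd in knockdown 1 and the 65.1st in knockdown 2, and YTHDF2 at the 46.2nd, 61.4th and 58.9th. These percentiles use ratios without a pseudocount and depend on that choice. With pseudocounts of 1 and 5 the control percentile was 51.2 and 57.6 for YTHDF1, and 48.0 and 54.2 for YTHDF2. The limma interaction of assay and condition was -0.06 ± 0.56 (SE; 95% interval -1.41 to 1.29, adjusted p = 0.996) for YTHDF1 and 0.23 ± 0.47 (-0.91 to 1.36, adjusted p = 0.996) for YTHDF2. The sign for YTHDF1 turned to positive with median centring (0.22) and with quantile normalization within each assay (0.17). No change in efficiency was detectable for either reader, and the intervals are wide.

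Among the 5 genes whose 4 knockdown values lay closest to those of YTHDF1 (Euclidean distance of the log2 differences from the control of the same assay, over 4 libraries) were ICAM5, BARD1, KIAA1257 and RASAL2, at distances of 0.76 to 1.06. BARD1, the partner of BRCA1 in a ubiquitin ligase, had mRNA of 14.2 for the control, 3.83 for knockdown 1 and 5.17 for knockdown 2, and footprints of 70.8, 15.1 and 34.1. Its second footprint library lay well above the first. ICAM5, an adhesion molecule, had mRNA of 6.09, 1.65 and 2.64 and control footprints of 9.13 against 2.26 in knockdown 1. Except for BARD1, these 4 genes had control footprints below 10, well under the 61.4 of YTHDF1, where small absolute differences make large log2 changes.

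Other genes of the m6A pathway were counted beside the readers, with the log2 differences of knockdown 1 and knockdown 2 from the control given in that order. No gene of these lists passed in limma in footprints, mRNA or translational efficiency. Of 9 writers tested (the methyltransferase METTL3 and its partners, and other RNA methyltransferases), 1 lay above the control in both mRNA libraries and 3 below, against 30.9% and 29.9% of all genes. In footprints 2 lay above and 5 below, against 17.5% and 51.2% of all genes. The median change of the list was -0.05 in mRNA and -0.31 in footprints, against -0.28 in footprints for all genes. METTL16, which methylates U6 RNA and MAT2A, stood lowest in mRNA (-0.73 and -0.31) and, after METTL5, highest in footprints (0.74 and 0.35). PCIF1, the cap methyltransferase, stood at -0.34 and -0.68 in mRNA. RBM15B and RBM15, which guide the methyltransferase, had the highest mean mRNA changes, at -0.10 and 0.22 for RBM15B, which differ in sign, and 0.02 and 0.05 for RBM15. METTL5, which methylates ribosomal RNA, had a footprint signal of 235 for the control, 439 for knockdown 1 and 522 for knockdown 2. Its log2 footprint change was 1.03 (limma adjusted p = 0.552), with mRNA at 33.0, 38.7 and 26.3. RBM15B and METTL3 stood lowest in footprints, RBM15B alike in both libraries (-0.86 and -0.94) and METTL3 mainly in knockdown 1 (-1.18 and -0.37). The erasers FTO and ALKBH5, which remove methyl groups, had mRNA differences of 0.09 and 0.42 and of -0.10 and -0.30. FTO footprints differed between the knockdowns, the control having 256, knockdown 1 131 and knockdown 2 264.

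Of 6 m6A-binding proteins outside the YTH family, 2 lay above the control in both mRNA libraries and 3 below, against 30.9% and 29.9% of all genes. FXR2, a relative of the fragile X protein, stood lowest in both assays, with mRNA of 17.4, 10.6 and 15.7 and footprints of 30.7, 19.5 and 11.2. Its mRNA was lowest in knockdown 1 and its footprints in knockdown 2. ELAVL1, a stabiliser of mRNA, stood at -0.28 and -0.38 in mRNA. LRPPRC stood at 0.14 and 0.18 in mRNA and FXR1 at 0.16 and 0.13. IGF2BP2 stood highest in footprints, with 82.4 for the control and 111 and 110 for the knockdowns. FXR1 followed with footprint differences of opposite sign (-0.02 and 0.09), and HNRNPC, a nuclear RNA-binding protein, stood at -0.81 and -0.41.

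Among known partners, 10 subunits of EIF3, the initiation factor that YTHDF1 is reported to bind, were tested. Their median change was 0.12 in mRNA and -0.15 in footprints, against -0.01 and -0.28 for all genes. In mRNA 5 lay above the control in both libraries and 2 below, against 30.9% and 29.9% of all genes. In footprints 1 lay above and 5 below, against 17.5% and 51.2%. EIF3L had the highest mean mRNA change (0.49 and 0.18) and the lowest mean footprint change (-1.06 and -0.40), both larger in knockdown 1. EIF3C (0.44 and 0.11) and EIF3J (-0.74 and -0.12) also differed from the control mainly in mRNA library 1, and EIF3I differed in sign (-0.51 and 0.03). In footprints EIF3G stood below the control in both libraries (-0.42 and -0.52), EIF3K differed in sign (0.48 and -0.14) and EIF3F rested on knockdown 2 (0.01 and 0.25). The values of EIF3C are uncertain because a near-identical gene copy exists.

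Of 6 genes of the decay machinery used by YTHDF2, 2 lay above the control in both mRNA libraries and 1 below, against 30.9% and 29.9% of all genes, and in footprints 1 lay above and 3 below, against 17.5% and 51.2%. CNOT9 stood highest in footprints (0.90 and 0.40). CNOT2 stood highest in mRNA (0.43 and 0.23), and its footprints differed in sign (0.82 and -0.31). The mRNA of CNOT1, the scaffold of the deadenylase, differed in sign as well (-0.01 and 0.23). CNOT3 mRNA was below the control in knockdown 1 and above it in knockdown 2 (-0.98 and 0.20), with footprints at -1.22 and -0.40. CNOT11 had the lowest means in both assays, which rested on knockdown 1. Its footprint signal was 79.0 for the control, 7.45 for knockdown 1 and 69.8 for knockdown 2, with mRNA at -0.96 and -0.12. For YTHDC1, the export receptor NXF1 had a footprint signal of 129 for the control, 78.9 for knockdown 1 and 62.5 for knockdown 2. Its log2 footprint change was -0.86 (limma adjusted p = 0.560), with mRNA of 23.2, 25.2 and 24.4. Footprints of the splicing factor SRSF10 were lower in knockdown 1 alone (-0.84 and 0.01), and its mRNA differed in sign (-0.28 and 0.18). For YTHDC2, footprints of the exonuclease XRN1 rested on knockdown 2 (-0.12 and -1.42), and its mRNA differed in sign (-0.18 and 0.32). Values in bulk libraries cannot tell fewer cells of a kind from less RNA per cell.

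In RIP with YTHDF1 antibody, 3 reader mRNAs were among those recovered. The list gives FPKM (fragments scaled to transcript length and library size) in RIP and input, and only genes with a ratio of at least 1.5. YTHDF1 mRNA stood at 32.1 FPKM in RIP and 12.8 in input, a ratio of 2.50. YTHDF3 stood at 26.6 and 5.38, a ratio of 4.95, and YTHDC2 at 3.99 and 1.11, a ratio of 3.61. FPKM is per length, so levels can be set side by side: in input the order was YTHDF1, YTHDF3, YTHDC2. The order by ratio was YTHDF3, YTHDC2, YTHDF1.

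Within the list of 3939 entries, whose median ratio was 2.28, YTHDF3 ranked 221 (94.4th percentile), YTHDC2 583 (85.2nd) and YTHDF1 1578 (59.9th). Among the 1970 entries with input at or above the median, YTHDF3 ranked 60 and YTHDF1 605. YTHDC2 was near the lowest listed input (1.00 FPKM), at the 2.69th percentile. With a pseudocount of 1 on both levels its ratio was 2.37, against 2.39 for YTHDF1 and 4.33 for YTHDF3, so that only the place of YTHDF3 did not depend on this choice. With 1 library on each side there is no replicate check and no test. Of all genes with m6A windows in both replicates, 41.9% were in the RIP list, against 2 of 4 readers (YTHDF1 and YTHDF3). Of genes tested for expression, 35.6% were in the RIP list and 72.5% had windows in both replicates; of the 2 readers tested, YTHDF1 was in the RIP list and both had windows. YTHDC2 was among the 281 RIP entries with no window in either m6A list, whose median ratio was 2.03, against 2.32 for the 3380 with windows in both.

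**Figure D3:**
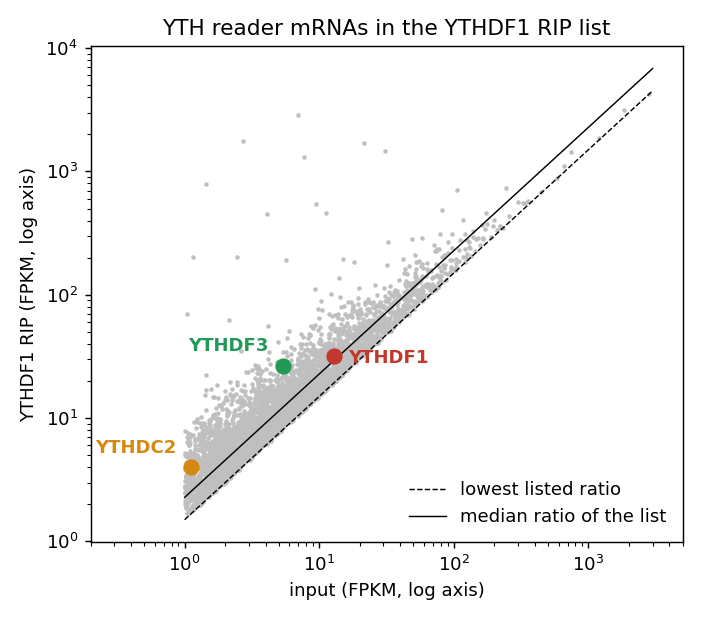
FPKM in RIP with YTHDF1 antibody (vertical, log axis) against FPKM in input (horizontal, log axis) for every entry of the list, with the 3 listed readers in colour. YTHDF3, at a ratio of 4.95, lies far above the line of the median ratio (2.28), YTHDF1, at 2.50, close to it, and YTHDC2 at the low end of input.

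The m6A lists gave 13 windows on readers in replicate 1 and 10 in replicate 2, each with a deposited ratio of immunoprecipitate over input of at least 3. These ratios are the authors' own. YTHDF2 had 5 and 4 windows, YTHDF1 3 and 3, YTHDC1 4 and 1, and YTHDF3 1 and 2. The median gene with any window had 2. Only 16.5% of genes in replicate 1 and 26.3% in replicate 2 had as many windows as YTHDF2 or more. Of the reader windows 9 of 13 in replicate 1 and 10 of 10 in replicate 2 overlapped a window of the other replicate, against 74.5% and 72.6% of all windows. The motif position was the same in 8 of those 9 and 8 of those 10, against 77.5% and 78.3% of all overlapping windows. A ratio of at least 5 was reached by 7 of 13 and 5 of 10 reader windows, against 57.2% and 56.4% of all windows, so reader windows were not set apart by these counts. The 3 YTHDC1 windows before position 1600 and the first YTHDF2 window were listed in replicate 1 only.

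YTHDF1 carried its strongest ratio in the first window, which spans 400 to 650 in replicate 1 and 425 to 650 in replicate 2. Its ratios of 9.79 and 9.84 lay at the 78.5th and 79.2nd percentiles of the lists and were the highest of any reader window. The summit and the motif differed there between replicates (motif at 626 and 578). The window around 1013 had ratios of 5.14 and 3.74, and that around 1315 had 3.48 and 3.90. Both of these kept their summit (1015 and 1358) and their motif in both replicates.

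The YTHDF2 windows ran from 525 to 1975, and those found in both replicates had ratios of 6.68 and 7.33 around 860, 6.91 and 7.02 around 1103, 4.27 and 3.90 around 1475, and 7.26 and 6.60 around 1825. Its ratios thus covered a narrower range than those of YTHDF1. YTHDF3 had 1 window of 350 bases in replicate 1 (975 to 1325, ratio 5.95), which replicate 2 listed as 2 windows (1025 to 1100, ratio 3.14, and 1150 to 1325, ratio 6.35). YTHDC1 had its only recurrent window around 2066, with ratios of 4.15 and 3.41. Its highest ratio, 7.34, was in a window of 50 bases seen in replicate 1 only. Positions start from an unnamed transcript end, so windows at like positions in different paralogs are not known to be homologous.

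**Figure D4:**
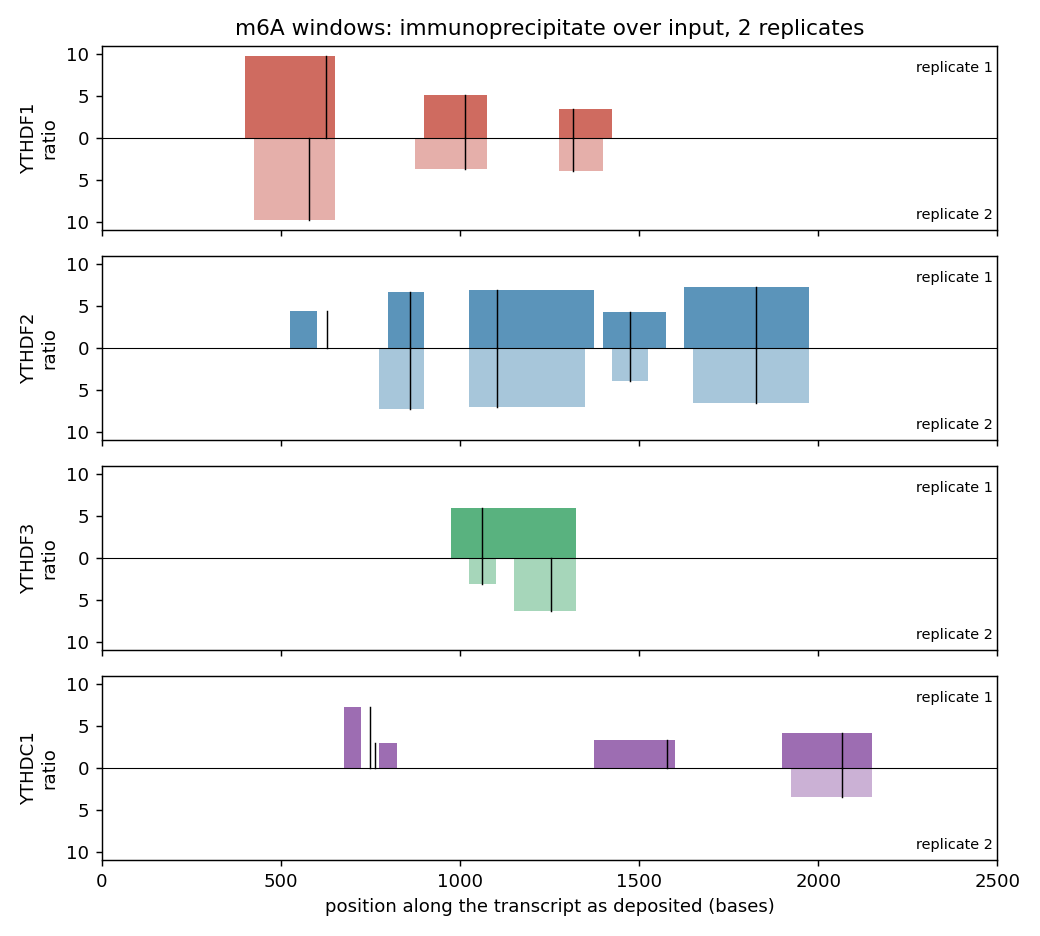
m6A windows of 4 readers along the deposited transcript position (bases); bar height is the authors' ratio, upward for replicate 1 and downward for replicate 2, and black lines mark the named motif. The first YTHDF1 window reaches 9.79 and 9.84, YTHDF2 has 4 windows in both replicates, and 3 of the 4 YTHDC1 windows face no window in replicate 2.

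Ratio and signal ordered the YTHDF1 windows in opposite ways in replicate 1, and differently but not in opposite order in replicate 2. Divided by window width, since the deposited signal grew with width, the immunoprecipitate signal of replicate 1 was 4.69 per base in the first window, 6.28 in the second and 7.65 in the third. The input signal was 0.479, 1.22 and 2.20. In replicate 2 the immunoprecipitate signals were 4.97, 4.51 and 7.95 and the input signals 0.505, 1.21 and 2.04. The third window therefore had the most immunoprecipitate signal per base and also the most input, and the first had the highest ratio with the least input. The YTHDC1 window around 2066 resembled the third of YTHDF1, with 8.61 and 6.89 against input of 2.07 and 2.02. The last YTHDF2 window combined the highest immunoprecipitate signal per base of any reader window (9.22 and 8.53) with input of 1.27 and 1.29. The median of all windows was 5.57 and 5.70 in immunoprecipitate and 0.995 in the input of replicate 1.

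All 5972 windows with the same borders in both lists had the same input signal (100%), while 0.0502% had the same immunoprecipitate signal. The replicates thus share 1 input, and their ratios are independent only in the immunoprecipitate.

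**Figure D5:**
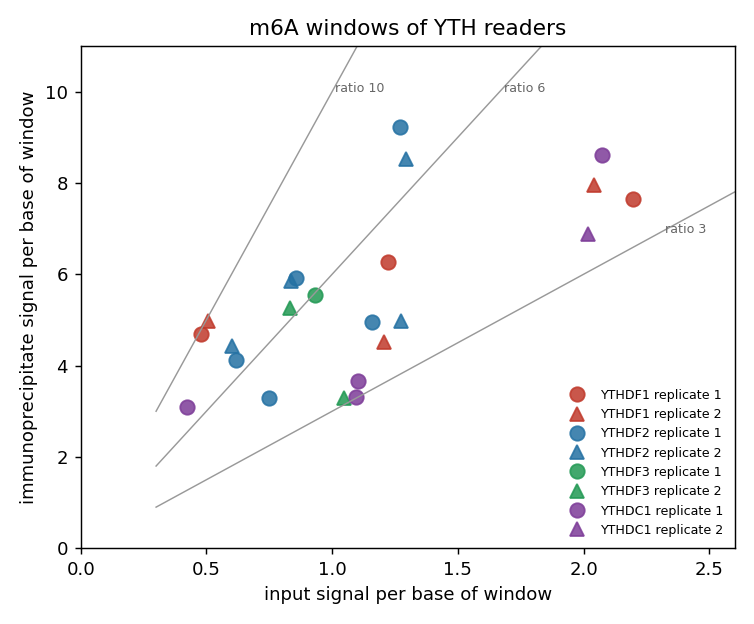
Immunoprecipitate against input signal per base of window for the reader windows; circles are replicate 1, triangles replicate 2, and grey lines mark ratios of 3, 6 and 10. The first YTHDF1 window lies at the left near the line of ratio 10, with input of 0.479 and 0.505, and the third at the right near ratio 3 to 4, with input of 2.20 and 2.04.

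As a check of the cell line, 7 of 11 colon epithelium markers were tested. Control mRNA was 1590 for KRT19, 1529 for KRT8, 636 for KRT18 and 142 for EPCAM. It was 20.1 for CDH1, 3.07 for CDX2 and 1.36 for KRT20. VIL1, CDX1, CDH17 and LGALS4 were not among the genes tested. Summed over the 7 tested markers, mRNA signal was 3922 for the control, 5501 for knockdown 1 and 3404 for knockdown 2. The sum rests mainly on KRT8, KRT18 and KRT19 and does not establish a colon identity. The 3 fibroblast markers tested of 8 summed to 6.35 to 7.50 in mRNA. Of 8 blood markers only CD68 was tested, with mRNA at 19.9 for the control, 4.98 for knockdown 1 and 19.9 for knockdown 2. Its footprint signals were 15089.6, 10162.5 and 9484.94. The footprint sums of the 7 tested colon markers were 2345.29, 3149.72 and 1808.64. The unit is not stated to be per length, so signals of different genes are not to be compared. The cause of these CD68 values was not tested. YTHDF1 and YTHDF2 lay on the same side of the control in both knockdown libraries although the epithelial sum did not, and the part of these markers in the readers' values was not tested.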

How the data were processed

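Alignment used STAR and GRCh38, per the submitters' processing notes; no source used here gives the counter or peak caller. Expression values are the authors' deposited signal, of unnamed unit, in which each control value is at least 0.5, so read depth is unknown. The RIP list holds FPKM and their ratio, per the file headers, and the m6A lists hold the authors' signal in immunoprecipitate and input and their ratio. Signals were put on the log2(value + 1) scale. Of 6926 rows, 12 with spreadsheet-damaged names and 132 with a mean under 1 on that scale were left out, and 6782 were fitted with limma 3.58.1 (R 4.3.3), with a trended prior, 1 mean per assay and condition and 2 residual degrees of freedom; each lone control is taken to have the spread of the knockdown libraries. Calls used a Benjamini-Hochberg adjusted p under 0.05, two-sided. The fit was also run on simulated data with the same noise in every gene and library, unlike these data, so that run does not show how it performs here. m6A windows were matched by 1 base of overlap. The named genes were the readers, the 2 highest and 2 lowest changes in each assay of each pathway list and the 5 genes most like YTHDF1, of which 1 is not reported here. Members, lists and filters were chosen with earlier results of these data known. Alternatives were other scalings, pseudocounts, filters, a replicate block and leaving out each knockdown library.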

Additional observations from a re-analysis of the deposited data

How the results depend on the processing

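No reader was called in footprints, mRNA or translational efficiency under any of the alternatives run. Over 12 alternatives the YTHDF1 change ranged from -1.73 to -1.29 in mRNA and from -1.80 to -1.40 in footprints, and that of YTHDF2 from 0.22 to 0.46 and from 0.53 to 0.86. The limma adjusted p of YTHDF1 footprints ranged from 0.0846 to 0.944. The efficiency change of YTHDF1 reversed to 0.22 with median centring and 0.17 with quantile normalization, and ranged from -0.17 to 0.048 when single libraries were left out; the cause was not tested. With a replicate block, which links libraries of the same name, the YTHDF1 footprint change was -1.69 (limma adjusted p = 0.0880). Both assays use the same 2 names, but the labels do not state that these pair cultures. The difference between knockdown libraries correlated at 0.37 between assays across genes. Calls over all genes went from 2 in footprints to 30 with the block, 8 without knockdown 1 and 80 without knockdown 2 of the footprint libraries, and 0 with median centring, quantile normalization, a pseudocount of 0.1 or no filter. In mRNA they went from 0 to 2 with the block and 1 without mRNA library 1, and in efficiency from 0 to 6 and 1. Reader windows in the m6A lists numbered 23 in all, 12 at a ratio of at least 5, and 10 to 13 when 1 replicate was left out. With an overlap of at least 50% of each window required, 18 rather than 19 were found in both replicates. The depth behind every value is unknown, which limits all of these comparisons.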

Other observations

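The RIP and m6A lists also held other genes of the m6A pathway, which were named after their values were seen. Of 12 writers, 6 were in the RIP list and 9 had m6A windows in both replicates, against 35.6% and 72.5% of the genes tested for expression. That set holds 9 of these writers and only part of the lists below, so its shares are a rough guide. RBM15, which guides the methyltransferase to its RNAs, had a RIP ratio of 10.7 at an input of 1.43 FPKM and 4 windows in each replicate. VIRMA, the scaffold of the writer complex, had a ratio of 2.13 and 5 and 6 windows. METTL16 had 7 and 9 windows and was not in the RIP list. Of 13 m6A-binding proteins outside the YTH family, 3 were in the RIP list (PRRC2A at 3.70, FXR2 at 2.90 and LRPPRC at 2.71) and 8 had windows in both replicates, against the same shares. Neither eraser was in the RIP list, while ALKBH5 had 6 and 5 windows. Of 12 decay genes, 2 were in the RIP list and 9 had windows in both replicates, against the same shares. UPF1 had a RIP ratio of 4.13 with 2 and 0 windows, and CNOT1 a ratio of 3.16 with 10 and 12 windows. Long mRNAs can hold more windows, and transcript length was not used here.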
